A study of Mus musculus with 31 samples.

Results

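The collagen genes of the mouse were followed across 31 RNA-seq libraries. Members were all rows whose symbol has the form Col, a number, a and a number, present in both deposited tables, which gave 44 of 20314 genes. They comprised 11 fibrillar collagens, 8 basement membrane collagens (the 6 Col4a genes, Col15a1 and Col18a1) and 25 other collagens. Levels are TPM values, a share of all transcripts that is corrected for transcript length, so that levels of different genes can be compared. In these bulk samples, fewer cells of a type and less RNA per cell cannot be told apart.

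The study concerned expandable hemangioblasts (eHBs), progenitor lines that form blood as well as endothelium, the lining of vessels, and are kept in culture with doxycycline, which drives inducible reprogramming factors. The labels name neither these factors nor the strain. The hematopoietic stem cell (HSC) group was 1 library of cells isolated at E14.5 (E, embryonic day) by sorting for CD45, CD201 and CD150 without CD48, and not cultured. Day 3 blood (n = 5) was sorted as VE-cadherin-positive and CD45-positive, and day 2 blood (n = 5) as VE-cadherin-positive and CD45-negative. Both came from the 5 eHB lines after withdrawal of doxycycline, at 1.5% oxygen with CHIR99021 (which activates Wnt signalling), Flt3L, IL-3 and SCF. Endothelial cultures (n = 5) were kept for 3 days without doxycycline, with VEGF, a cyclic AMP analogue, BMP4, FGF2 and SB431542, an inhibitor of TGF-beta receptors, and were not sorted. The eHB lines (n = 5, not sorted) comprised FL4 and FL10 of fetal liver origin, M5 of embryonic fibroblast origin, and RB3.6.5 and RB4.6.9, which came from embryonic stem (ES) cells. The ES-derived eHB lines were grown in the endothelial medium plus doxycycline, whereas M5, FL4 and FL10 were grown with FGF2 and doxycycline alone, so that in eHB cells the origin of a line and its medium cannot be told apart. Kdr-positive mesoderm (n = 3, sorted) was made in 4 days from ES lines RB2, RB3 and RB4 with Activin A, CHIR99021, BMP4 and FGF2. The ES cells (n = 3, not sorted) were the same 3 lines in LIF, CHIR99021 and PD0325901, kept off their feeder fibroblasts for 4 days. Yolk sac and embryo endothelium (n = 2 each) were primary VE-cadherin-positive, Pecam1-positive cells sorted at E11.5, and nothing in the labels says whether their replicates were separate animals, so that their p-values may reflect no more than technical spread. Each cultured group grew on Matrigel.

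Collagens are secreted proteins of 3 chains wound into a triple helix, in which glycine recurs at a fixed interval. Fibrillar collagens such as types I, III and V assemble into the fibres of connective tissue and are typical products of fibroblasts and other mesenchymal cells. Type IV collagen forms the network of basement membranes, the sheets under endothelium and epithelium. Types XV and XVIII are basement membrane proteoglycans of vessels, and the C-terminal fragment of type XVIII is endostatin. The remaining types include the fibril-associated types IX, XII, XIV and XVI, the beaded filament type VI, and the transmembrane types XIII, XVII, XXIII and XXV.

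The difference between the classes can be read in their transcripts. In the reading frame with the most glycine codons, the longest unbroken run of triplets starting with glycine was 216 to 344 triplets in the 11 fibrillar genes (median 338), 30 to 66 in the 8 basement membrane genes (median 41) and 23 to 113 in the 25 others (median 52). Runs of 5 or more triplets numbered 2 to 3 in fibrillar genes and 11 to 27 in basement membrane genes, whose helices are interrupted. A stretch of 54 bases from a run in Col1a1, the main fibrillar chain, and in Col4a1, the most abundant basement membrane chain, shows the repeat, with the glycine codons in capitals (GENCODE transcripts of GRCm38, 5′ to 3′).
Col1a1: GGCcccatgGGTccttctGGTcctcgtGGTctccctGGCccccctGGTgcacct
Col4a1: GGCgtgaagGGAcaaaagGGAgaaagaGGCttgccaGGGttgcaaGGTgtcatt

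The type IV genes lie head to head in pairs. Col4a1 (ENSMUSG00000031502, GRCm38 chromosome 8, 11198423 to 11312826, minus strand) and Col4a2 (ENSMUSG00000031503, chromosome 8, 11312805 to 11449287, plus strand) start 21 bases apart and their annotated first exons overlap by 22 bases. The starts of Col4a3 and Col4a4 on chromosome 1 are 72 bases apart, and those of Col4a5 and Col4a6 on the X chromosome 1309 bases apart. The bases at chr8:11312801-11312830 (plus strand, GRCm38.p6) are shown because they hold both start sites, with the overlap in capitals.
Col4a1 and Col4a2 starts: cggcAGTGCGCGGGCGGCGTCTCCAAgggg

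RefSeq promoter windows (250 bases before to 50 after a start, GRCm38.p6) were found for 35 of the 44 members, with 38 windows. The letters GGGCGG (a GC box) occurred on either strand in 23 of the 38 windows, against 35.7% of all 32851 windows, CCAAT in 13 of 38, against 37.4%, and TATAAA in 5 of 38, against 13.6%. The overlap of Col4a1 and Col4a2 holds GGGCGG. The 250 bases upstream of Col15a1, Col18a1 (the farther upstream of its 2 windows) and Col3a1 are shown, since Col15a1 and Col18a1 were higher in endothelial cultures than in eHB and Col3a1 differed between the endothelial groups described below. None of the 3 motifs was found upstream of Col15a1 (chr4:47207762-47208011, plus strand), GGGCGG and CCAAT were found on the reverse strand (as CCGCCC and ATTGG) upstream of Col18a1 (chr10:77166531-77166780, minus strand) but no motif in its other window, and TATAAA upstream of Col3a1 (chr1:45311288-45311537, plus strand), with the matches in capitals.
Col15a1: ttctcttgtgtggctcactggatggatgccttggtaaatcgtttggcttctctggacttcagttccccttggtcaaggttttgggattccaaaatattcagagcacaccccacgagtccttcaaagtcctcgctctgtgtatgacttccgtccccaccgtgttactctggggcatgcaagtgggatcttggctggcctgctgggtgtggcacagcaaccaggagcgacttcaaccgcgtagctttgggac
Col18a1: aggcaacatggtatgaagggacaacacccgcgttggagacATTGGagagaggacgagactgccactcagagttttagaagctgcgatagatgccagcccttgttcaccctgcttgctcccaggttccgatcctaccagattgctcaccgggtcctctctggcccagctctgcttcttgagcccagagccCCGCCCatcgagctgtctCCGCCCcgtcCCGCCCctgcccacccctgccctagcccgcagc
Col3a1: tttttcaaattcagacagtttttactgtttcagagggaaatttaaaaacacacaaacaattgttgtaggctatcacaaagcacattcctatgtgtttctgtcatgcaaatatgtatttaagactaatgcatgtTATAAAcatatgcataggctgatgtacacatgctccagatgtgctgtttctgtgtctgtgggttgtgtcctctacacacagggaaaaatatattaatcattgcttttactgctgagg

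The libraries held 9424412 to 79497758 expected counts, fewest in day 3 blood of RB3.6.5 and most in HSCs. Replicates of a group all differed by more than sampling noise. Defining markers were present: the pluripotency gene Pou5f1 averaged 1524 TPM in ES cells, Kdr 79.9 TPM in mesoderm, the VE-cadherin gene Cdh5 2890 TPM in endothelial cultures and Ptprc (CD45) 68.8 TPM in day 3 blood. The yolk sac libraries also held visceral endoderm transcripts, whose values stand beside the results they touch. The labels name no batch. Library identifiers of the ES cells, the HSCs and the ES-derived eHB and endothelial samples run in other number ranges than those of the remaining libraries, and whether this marks a batch is not stated.

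Of the 44 members, 33 reached a mean of 1 TPM in at least 1 group, 27 reached 5 TPM and 12 reached 50 TPM. The 12 were Col1a1, Col1a2, Col3a1, Col5a1 and Col5a2 among fibrillar genes, Col4a1, Col4a2, Col15a1 and Col18a1 among basement membrane genes, and Col9a2, Col13a1 and Col14a1 among the others. The 11 members below 1 TPM in every group mean were Col4a3, Col4a4, Col6a4, Col6a5, Col6a6, Col8a1, Col10a1, Col19a1, Col24a1, Col25a1 and Col28a1. Col4a1 was highest in endothelial cultures, Col1a1 and Col13a1 in yolk sac endothelium, Col15a1 and Col18a1 in embryo endothelium, Col5a1 in mesoderm and Col11a2 in HSCs. Yolk sac endothelium held 24 members at 5 TPM or more, embryo endothelium 12, mesoderm 10, endothelial cultures 6, eHB 5, and either day of blood 3.

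**Figure D1:**
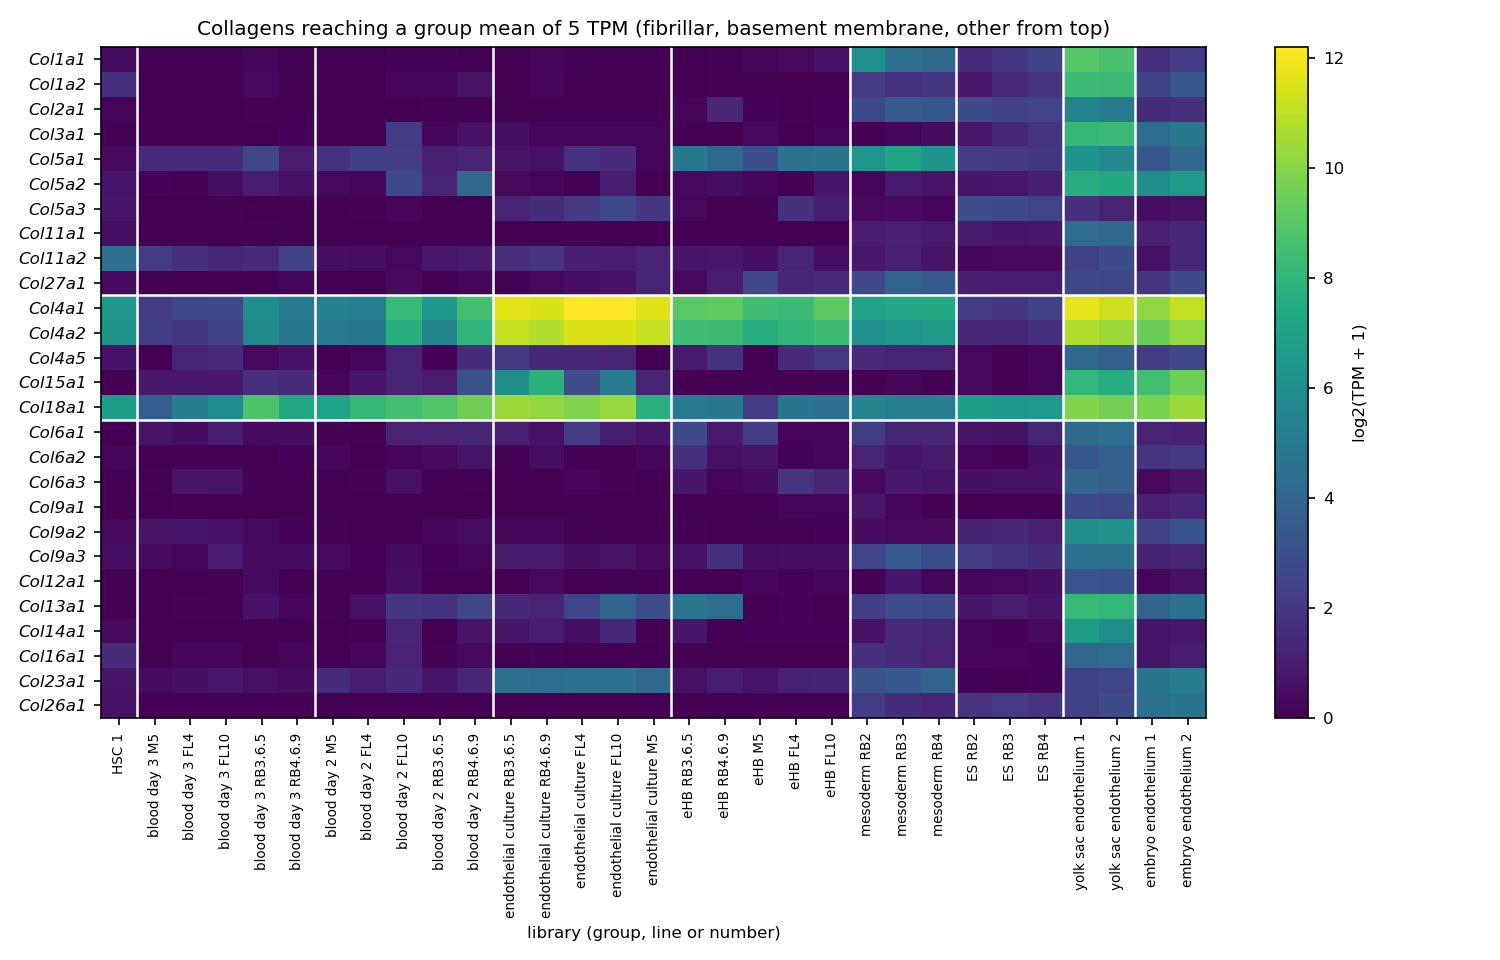
Level of the 27 collagens with a group mean of 5 TPM or more in each of 31 libraries, as log2(TPM + 1) (colour). White lines separate groups (columns) and the fibrillar, basement membrane and other collagens (rows, from the top). By group mean, Col4a1 and Col4a2 are highest in endothelial cultures. The fibrillar genes shown are highest in yolk sac endothelium, except Col5a1 and Col27a1 (mesoderm), Col5a3 (ES cells) and Col11a2 (HSCs).

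Basement membrane collagens made up nearly all collagen transcripts in endothelial cultures. Their summed level was 7350 ± 1468 TPM in endothelial cultures and 786 ± 201 TPM in eHB (SD, n = 5 each), which is 99.39% to 99.51% and 92.8% to 96.3% of collagen TPM. The sum was 275 TPM in the HSC library, 186 ± 227 TPM in day 3 blood, 698 ± 487 TPM in day 2 blood, 278 ± 28.4 TPM in mesoderm, and 104 ± 10.97 TPM in the ES lines. It was 4909 and 6386 TPM in yolk sac endothelium, against 3129 and 5529 TPM in embryo endothelium. Fibrillar collagens had another order: 1327 and 1464 TPM in yolk sac endothelium, against 108 and 167 TPM in embryo endothelium. They summed to 164 ± 41.3 TPM in mesoderm, against 22.6 ± 1.59 TPM in ES lines, and to 6.81 ± 2.00 TPM in endothelial cultures, against 24.3 ± 7.81 TPM in eHB. The log2 ratio of mesoderm over ES cells was 2.83 for fibrillar and 1.41 for basement membrane sums in TPM, and 3.54 and 2.15 on TMM-scaled CPM. Mesoderm was the group with the lowest share of basement membrane collagens (53.0% to 65.3%).

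**Figure D2:**
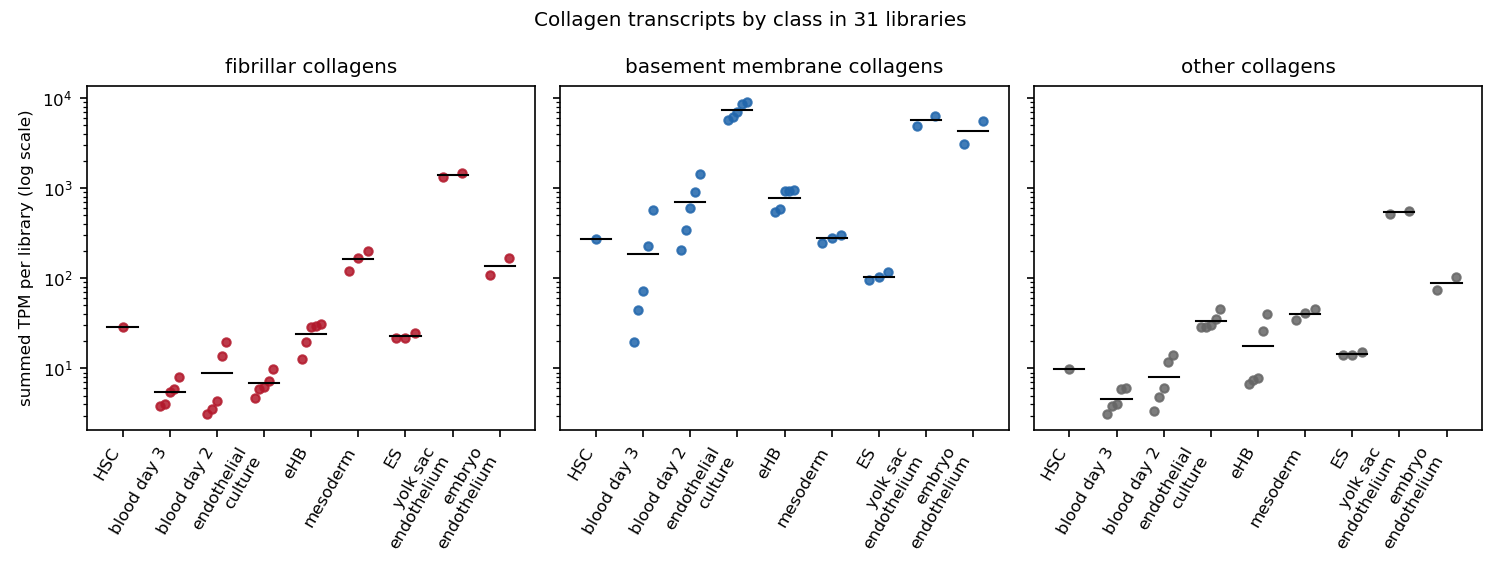
Summed TPM of fibrillar, basement membrane and other collagens (log scale) in each library, by group. Points are libraries and bars are means. Basement membrane totals of the 5 endothelial cultures (5731 to 9120 TPM) lie above those of every eHB, blood, mesoderm and ES library, and fibrillar totals are highest in both yolk sac libraries.

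The chains of a heterotrimer can be compared directly. Type IV collagen of vessels is built of alpha 1 and alpha 2 chains. Col4a1 exceeded Col4a2 in each of 31 libraries but day 3 blood of M5, with a ratio of TPM of 0.911 to 2.06 and a median of 1.66. The ratio was 1.44 to 1.66 in endothelial cultures, 1.26 to 1.81 in eHB, 1.98 to 2.02 in yolk sac endothelium and 1.70 to 1.73 in embryo endothelium. Their log2(TPM + 1) values correlated with Pearson's r = 0.997 over the 31 libraries, which share depth and group structure between the genes. Col4a1 with Col18a1 gave 0.513 and with Col15a1 0.626. For type I collagen, built of alpha 1 and alpha 2 chains, the ratio of Col1a1 to Col1a2 was 1.29 to 1.50 in yolk sac endothelium and 0.401 to 0.495 in embryo endothelium. In mesoderm it was 6.30 to 20.2.

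Mesoderm was compared with the ES cells it was made from. Type IV collagen and the fibrillar chains Col5a1 and Col1a1 were higher in mesoderm, and Col18a1 and Col5a3 were lower. Of 33 members tested, 22 were higher and 7 lower (edgeR, adjusted p under 0.05), where 39.1% of all 13539 genes tested were called higher and 40.0% lower. The median log2 fold change was 2.27 for the 33 members and -0.0039 for all genes tested. Among basement membrane genes 4 were higher and 1 lower, among fibrillar genes 8 and 2, and among the others 10 and 4, with 1 fibrillar and 3 other members not past the threshold.

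Among fibrillar genes, Col5a1, a type V chain that initiates fibrils, was at 82.5, 151 and 78.5 TPM in mesoderm (lines RB2, RB3, RB4), against 3.34, 3.20 and 2.97 TPM in ES lines (log2 fold change 5.34 ± 0.23 SE, adjusted p = 1.98e-07). Every mesoderm library stood above every ES library. Col1a1 was at 68.5, 20.6 and 17.6 TPM in mesoderm, against 1.71, 2.84 and 4.17 TPM in ES lines (3.97 ± 0.65, adjusted p = 0.000693), with line RB2 the highest. Its partner Col1a2, which also passed, averaged 2.88 TPM in mesoderm, against 1.72 TPM in ES lines. Col27a1 (9.74 and 0.947 TPM, log2 fold change 3.67) and the cartilage collagen Col2a1 (8.50 and 4.93 TPM, 1.11) were also higher in mesoderm. Col5a3 was lower, at 0.204 TPM in mesoderm, against 5.51 TPM in ES lines (-4.45 ± 0.27).

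Among basement membrane genes, Col4a1 was at 129, 158 and 172 TPM in mesoderm, against 3.33, 2.81 and 4.32 TPM in ES lines (log2 fold change 5.79 ± 0.18 SE, adjusted p = 2.58e-08). Col4a2 averaged 83.0 ± 10.4 TPM in mesoderm, against 1.77 ± 0.289 TPM in ES lines (5.88 ± 0.15). Col18a1 moved the other way, at 43.3, 36.7 and 36.6 TPM in mesoderm, against 111, 90.4 and 95.4 TPM in ES lines (-1.01 ± 0.12, adjusted p = 6.03e-05), with no overlap. Col4a6 had 337 counts in mesoderm and none in ES cells, at least 90.4-fold higher. Among the others, the transmembrane Col23a1 (10.4 and 0.0797 TPM in mesoderm and ES cells, log2 fold change 7.37), the transmembrane Col13a1 (5.28 and 0.711 TPM, 3.20) and Col9a3 (7.07 and 2.60 TPM, 1.76) were higher.

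Genes that act on collagens moved in both directions in mesoderm. Of 27 tested genes for collagen synthesis and crosslinking, 15 were higher and 6 lower, with Leprel1 (a prolyl 3-hydroxylase), Adamts3 (a procollagen N-proteinase) and the lysyl oxidase Loxl2 (29.1 TPM in mesoderm, against 0.458 TPM in ES lines, log2 fold change 6.27) among the higher, and Pcolce, Crtap and Fkbp14 among the lower. Of 16 basement membrane partners 4 were higher and 10 lower: the peroxidase Pxdn, which crosslinks type IV collagen, was at 47.7 TPM in mesoderm, against 0.690 TPM in ES lines (6.45), whereas the linker nidogen Nid1 was at 18.6 and 264 TPM (-3.53). Of 6 tested collagen receptors 4 were higher and 2 lower. Mural markers such as Tagln (268 and 1.12 TPM) and the mesenchymal Pdgfrb (27.5 and 0.553 TPM) were also higher in mesoderm. Of 5 mesenchymal markers tested, 4 passed as higher and 1 as lower. The mesenchymal list summed to 107 to 123 TPM in mesoderm, a range that overlapped the 81.2 to 120 TPM of ES cells. Lum, Dcn and Postn averaged 0.0443 TPM or less in mesoderm. The part of mural and mesenchymal markers in the result was not tested.

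The step from mesoderm to eHB was compared next. Fibrillar collagens were lower in eHB and the type IV pair was higher. Of 31 members tested, 3 were higher and 14 lower, where 23.5% of all 13282 genes tested were called higher and 23.1% lower. The median log2 fold change was -1.94 for the members and 0.05 for all genes. None of the 11 fibrillar genes was higher and 7 were lower. Of 5 basement membrane genes 2 were higher and none lower.

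Col5a1 was also the main fibrillar transcript of eHB cells. It was at 29.3, 15.95, 6.60, 23.4 and 24.7 TPM across RB3.6.5, RB4.6.9, M5, FL4 and FL10, against 78.5 to 151 TPM in mesoderm (log2 fold change -2.68 ± 0.42 SE, adjusted p = 0.00139). All eHB libraries lay below all mesoderm libraries. Col1a1 was at 0.0230 to 0.498 TPM in eHB, against 17.6 to 68.5 TPM in mesoderm (-7.92 ± 0.93), and Col2a1 averaged 0.363 TPM in eHB, against 8.50 TPM in mesoderm (-4.89 ± 1.08). Col27a1 averaged 1.96 TPM in eHB, against 9.74 TPM in mesoderm (-2.59 ± 0.81, adjusted p = 0.0293), a call that was lost without mesoderm line RB3 (adjusted p = 0.094) or RB4 (0.0767) and without eHB line FL4 or FL10 (0.0566 each).

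Col4a1 was at 316 to 593 TPM in eHB, against 129 to 172 TPM in mesoderm (log2 fold change 1.30 ± 0.23 SE, adjusted p = 0.00271), and Col4a2 averaged 288 ± 64.9 TPM in eHB, against 83.0 ± 10.4 TPM in mesoderm (1.47 ± 0.20). Neither pair of ranges overlapped. Col23a1 was lower, at 0.846 TPM in eHB, against 10.4 TPM in mesoderm (-3.93 ± 0.36), as was Col9a3 (0.773 and 7.07 TPM, -3.49 ± 0.66). Other called members stayed below 5 TPM in both groups: Col1a2, Col11a1, Col24a1, Col7a1, Col8a2, Col14a1, Col16a1 and Col26a1 were lower and Col20a1 higher. Of 16 partners 3 were higher and 5 lower: the laminin chains Lamb1 (154 TPM in eHB, against 70.1 TPM in mesoderm) and Lamc1 (113 and 47.2 TPM) and the proteoglycan agrin (Agrn) were higher, and Lama4 and Lamb2 were among the lower. For synthesis genes 5 of 28 were higher and 10 lower, among them Adamts14 (26.2 TPM in eHB, against 2.18 TPM in mesoderm, log2 fold change 3.27) and Loxl4 (0.0810 and 8.76 TPM, -7.04). Mural markers summed to 16.6 to 209 TPM in eHB, against 265 to 365 TPM in mesoderm, and mesenchymal markers to 47.4 to 155 TPM in eHB, against 107 to 123 TPM in mesoderm. Fbln1 made up most of the mesenchymal sum in eHB (47.0 to 138 TPM) and was at 48.9 to 67.2 TPM in mesoderm. Pdgfrb, higher in mesoderm than in ES cells, averaged only 0.263 TPM in eHB. The part of such markers in the fibrillar result was not tested.

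One collagen split the eHB lines. Col13a1 was at 27.1 and 19.7 TPM in the ES-derived lines (RB3.6.5, RB4.6.9), and at 0.0320, 0.0950 and 0 TPM in M5, FL4 and FL10, against 3.77 to 6.49 TPM in mesoderm. The eHB lines thus lay on both sides of mesoderm, and the group comparison gave a log2 fold change of 0.47 ± 1.90 SE (adjusted p = 0.856). The split follows both the origin of the lines and the growth medium.

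The comparison of endothelial cultures with their eHB sources asked what collagens endothelial differentiation brings. Type IV, XV and XVIII collagen and Col23a1 rose, and Col5a1 fell. Of 21 members tested, 8 were higher and 3 lower, where 34.3% of all 12579 genes tested were called higher and 35.6% lower. The median log2 fold change was 0.995 for the members and -0.04 for all genes. Of the 6 basement membrane genes tested 4 were higher, with a median log2 fold change of 3.09, and Col4a3 and Col4a5 did not pass. By limma on log2(TPM + 1) the split of called members was 7 higher and 1 lower. Of all 11394 genes in that fit, 3949 were called higher and 4296 lower.

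Col4a1 was at 3359, 3010, 3260, 4658 and 4733 TPM in endothelial cultures of RB3.6.5, RB4.6.9, M5, FL4 and FL10, against 548, 593, 346, 316 and 563 TPM in the eHB cells of the same lines (log2 fold change 3.04 ± 0.22 SE, adjusted p = 1.21e-06). Col4a2 averaged 2479 ± 539 TPM in endothelial cultures and 288 ± 64.9 TPM in eHB (3.14 ± 0.20, adjusted p = 5.62e-07). The level was higher in endothelial cultures of every line: the log2 ratio of Col4a1 (TPM + 1) was 2.61 and 2.34 in the ES-derived lines, whose medium differed from that of eHB in doxycycline alone, and 3.23, 3.88 and 3.07 in M5, FL4 and FL10.

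Col18a1 was at 1392, 1184, 213, 914 and 1296 TPM in endothelial cultures of RB3.6.5, RB4.6.9, M5, FL4 and FL10, against 33.2, 28.3, 3.57, 26.2 and 22.9 TPM in eHB (log2 fold change 5.50 ± 0.68 SE, adjusted p = 4.49e-05). Line M5 was lowest in both groups, and the log2 ratio within a line was 5.07 to 5.76. Col15a1 was at 64.7, 226, 1.37, 6.51 and 30.4 TPM in endothelial cultures, in the same order of lines, against 0.0420 TPM or less in eHB (11.67 ± 1.75, adjusted p = 0.000168). The groups did not overlap, but the endothelial lines spanned a wider range than for any other basement membrane gene at this level. Col23a1 was at 16.3 to 23.3 TPM in endothelial cultures and 0.485 to 1.17 TPM in eHB (4.65 ± 0.29, adjusted p = 5.02e-07).

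**Figure D3:**
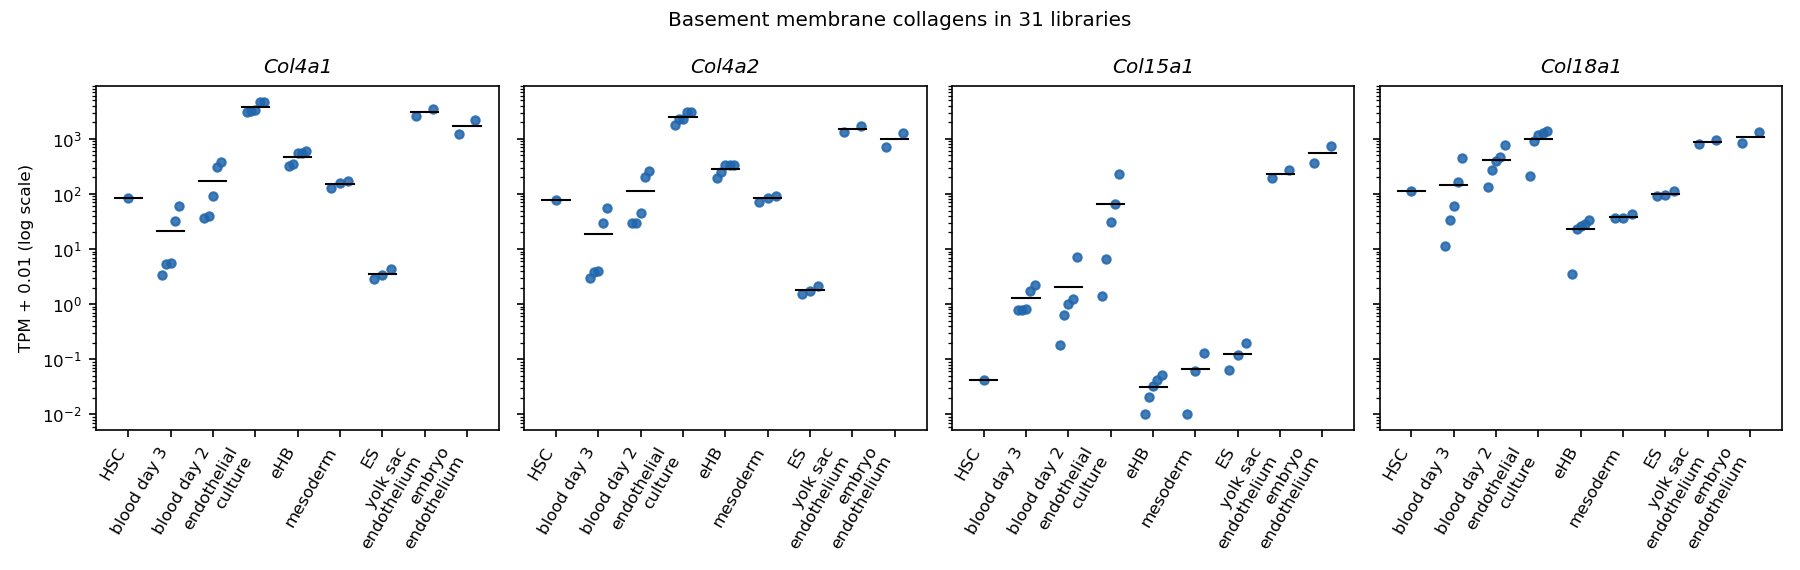
TPM + 0.01 (log scale) of Col4a1, Col4a2, Col15a1 and Col18a1 in each of 31 libraries. Points are libraries and bars are means. All 4 genes are higher in endothelial cultures than in eHB without overlap, with a spread of 1.37 to 226 TPM for Col15a1 in endothelial cultures.

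The fall of Col5a1 left endothelial cultures with few fibrillar transcripts: it was at 0.178 to 2.51 TPM in endothelial cultures and 6.60 to 29.3 TPM in eHB (log2 fold change -4.14 ± 0.71 SE, adjusted p = 0.000409). The other called members were below 5 TPM in both groups (Col7a1, Col11a2 and Col25a1 higher, Col6a3 and Col22a1 lower). Of 13 basement membrane partners tested 9 were higher and 2 lower. Lama4, a laminin chain of vessels, was at 27.7 TPM in endothelial cultures and 0.0598 TPM in eHB (8.71), the matricellular Sparc, which binds collagens, at 5856 and 454 TPM (3.73) and nidogen 2 (Nid2) at 271 and 29.3 TPM (3.26), while Lama1 (-2.79) and Lama5 (-2.14) were lower. Of 25 synthesis genes 10 were higher and 3 lower, the higher ones including Loxl2 (239 and 3.10 TPM, 6.31), the lysyl hydroxylase Plod1 (3.46) and the procollagen C-proteinase Bmp1 (3.00). Pcolce2, Adamts14 and Plod2 were lower. Of 6 collagen receptors tested 3 were higher and 2 lower. The integrin chains were higher, with Itga2 at 122 TPM in endothelial cultures and 0.0888 TPM in eHB (10.43), Itga1 (4.55) and Itgb1 (2.86), and the receptor kinase Ddr1 (1.66 and 36.3 TPM, -4.45) and Mrc2 (-4.58) were lower.

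Type IV collagen is also made by parietal endoderm and mural cells. The 6 parietal endoderm markers summed to 5768 to 7832 TPM in endothelial cultures and 360 to 858 TPM in eHB. Most of both sums was Sparc (5343 to 7394 and 259 to 675 TPM), which is also counted among the partners. Sparc, Lamb1 (274 and 154 TPM), Plat (132 and 0.0678 TPM) and Thbd (7.72 and 0.223 TPM) were higher in endothelial cultures, and Pth1r was lower (0.0340 and 2.40 TPM). Stra6 was at 0 in all 5 endothelial cultures and averaged 0.508 TPM in eHB. Markers of visceral endoderm summed to 0.598 to 0.950 TPM in endothelial cultures and 0.705 to 13.4 TPM in eHB. Mural markers summed to 8.34 to 81.3 TPM in endothelial cultures and 16.6 to 209 TPM in eHB. Mesenchymal markers summed to 1.21 to 27.5 TPM in endothelial cultures and 47.4 to 155 TPM in eHB, of which Fbln1 made up most, and Lum, Dcn and Postn averaged 0.0556 TPM or less in both groups. The part of such cells in the type IV result was not tested.

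Blood differentiation was followed at 2 days, with the same eHB libraries as the reference, so that the comparison shares samples with the one above. In day 2 blood Col18a1 rose and Col5a1 fell. Of 19 members tested, 4 were higher and 3 lower, where 28.5% of all 12269 genes tested were called higher and 25.5% lower. The median log2 fold change was -0.85 for the members and 0.01 for all genes. On the TPM scale, where limma's median over all genes lay at -0.61, 1 member was called higher and 3 lower. Of all 11093 genes in that fit, 1527 were called higher and 5650 lower. The called members below 5 TPM were Col5a2, Col15a1 and Col23a1 (higher) and Col22a1 and Col27a1 (lower).

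Col18a1 was at 468, 777, 136, 277 and 390 TPM in day 2 blood of RB3.6.5, RB4.6.9, M5, FL4 and FL10, against 33.2, 28.3, 3.57, 26.2 and 22.9 TPM in eHB (log2 fold change 4.75 ± 0.59 SE, adjusted p = 0.000223). It was higher in every line, by 3.35 to 4.91 on the scale of log2(TPM + 1), and M5 was again lowest. Col5a1 was at 1.09 to 3.74 TPM in day 2 blood and 6.60 to 29.3 TPM in eHB (-2.33 ± 0.50, adjusted p = 0.00333).

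The type IV call in day 2 blood depended on the fit. Col4a1 was at 91.4, 384, 40.1, 37.0 and 308 TPM in day 2 blood of RB3.6.5, RB4.6.9, M5, FL4 and FL10, against 548, 593, 346, 316 and 563 TPM in eHB (log2 fold change -0.96 ± 0.54 SE, adjusted p = 0.157). In TPM, each line was lower in day 2 blood than in its eHB cells, RB4.6.9 and FL10 least. On that scale the median log2 change of all genes was itself below 0, at -0.609 by limma on log2(TPM + 1). Col4a1 passed once the line was a block (-1.40, adjusted p = 0.0161), and so did Col4a2 (-1.29, adjusted p = 0.0322, against -0.85 and 0.194 without). Both also passed without day 2 blood of RB4.6.9 (-1.43 and -1.34, adjusted p = 0.0429 and 0.0434) and by limma on log2(TPM + 1) (-2.04 and -1.93, adjusted p = 0.0143 and 0.0148), and neither passed by DESeq2 (adjusted p = 0.129 and 0.171). Of 11 basement membrane partners tested 5 were lower, none was higher and 6 did not pass. The lower ones included Lamb1 (10.7 TPM in day 2 blood and 154 TPM in eHB, -3.35), Nid1 (6.09 and 105 TPM, -3.59) and Lama1 (-4.54). Of 24 synthesis genes 6 were higher and 4 lower, with Loxl2 (29.4 TPM in day 2 blood and 3.10 TPM in eHB, 3.74) and Plod1 (1.94) among the higher. The endothelial markers summed to 158 to 1226 TPM in day 2 blood and 4.67 to 288 TPM in eHB, and the red cell markers to 2089 to 53510 TPM in day 2 blood and 0.772 to 50.2 TPM in eHB. Their part in these results was not tested.

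**Figure D4:**
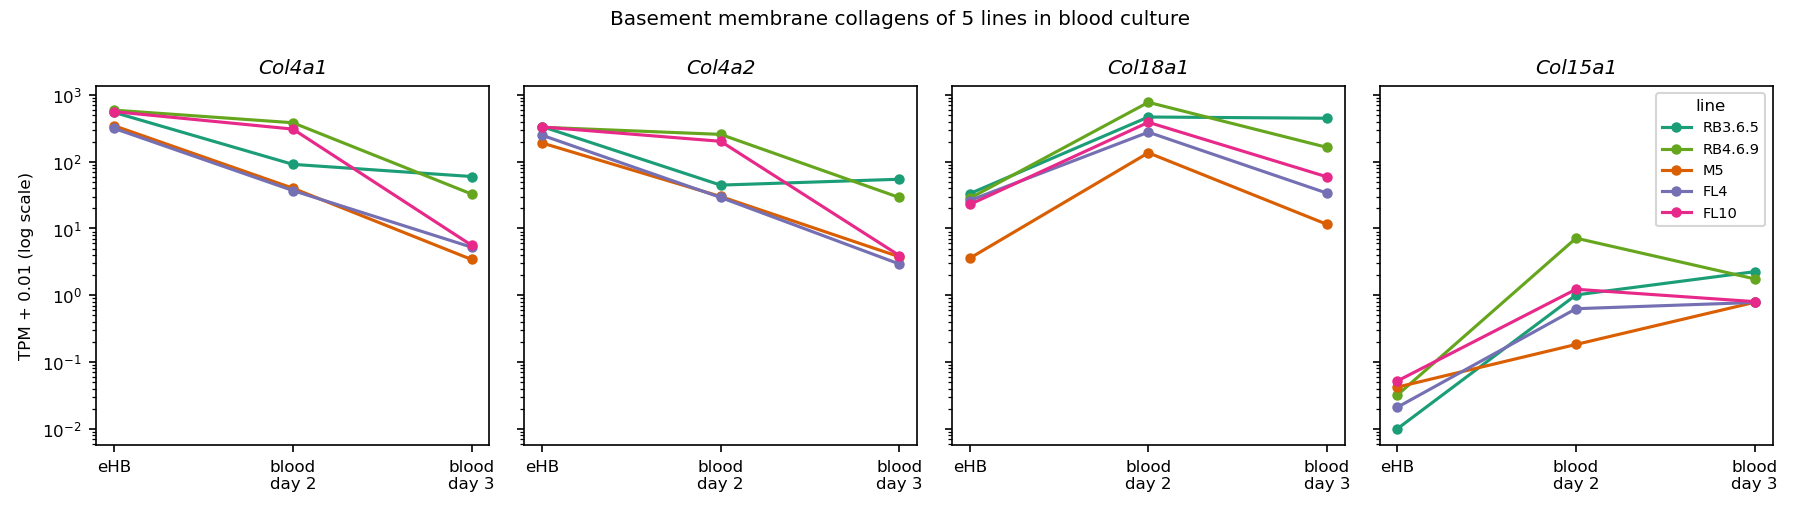
TPM + 0.01 (log scale) of Col4a1, Col4a2, Col18a1 and Col15a1 in the eHB cells, day 2 blood and day 3 blood of each of 5 lines. Each line of the plot is an eHB line. In TPM, Col4a1 is lower at each step in all 5 lines, and Col18a1 is highest on day 2 in all 5. From eHB to day 2 blood the median log2 change of all genes on the TPM scale was -0.609.

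Between day 3 and day 2 of blood culture, 2 of 14 members tested were called, where 7.31% of all 12084 genes tested were called higher and 2.87% lower. Col11a2, a fibrillar chain, was higher, at 1.42 to 4.27 TPM on day 3 and 0.194 to 0.817 TPM on day 2 (log2 fold change 2.25 ± 0.46 SE, adjusted p = 0.0146). Col23a1 was lower, at 0.449 TPM on day 3 and 1.38 TPM on day 2 (-1.75 ± 0.45, adjusted p = 0.0354). Both levels are low and both genes fall outside the naming rule. The count was 1 without day 2 blood of M5, FL4, FL10 or RB4.6.9 and without day 3 blood of M5, FL4, FL10 or RB4.6.9, and 6 without day 3 blood of RB3.6.5. In the last fit 1151 of all 12275 genes tested were called higher and 779 lower, against 883 and 347 of 12084 with all libraries.

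The abundant members were spread widely on day 3. Col4a1 was at 60.1, 32.9, 3.43, 5.24 and 5.60 TPM on day 3 in RB3.6.5, RB4.6.9, M5, FL4 and FL10, against 91.4, 384, 40.1, 37.0 and 308 TPM on day 2 (log2 fold change -2.76 ± 1.00 SE, adjusted p = 0.109). It passed once the line was a block (-3.47, adjusted p = 0.0387) and by DESeq2 (adjusted p = 0.0138). Col4a2 (-2.33 ± 1.02, adjusted p = 0.176) and Col18a1 (-1.32 ± 0.90, adjusted p = 0.38) did not pass with or without the block. Col18a1 was at 449, 164, 11.53, 33.9 and 59.4 TPM on day 3 and 468, 777, 136, 277 and 390 TPM on day 2, so that RB3.6.5 differed little between days and the other lines were lower on day 3. Without day 3 blood of RB3.6.5, the shallowest library, Col4a1 (-3.96, adjusted p = 0.0268), Col4a2 (-3.59, 0.0381) and Col18a1 (-2.78, 0.0322) all passed. Of 12 basement membrane partners tested 2 were lower and none higher: perlecan (Hspg2, 7.22 TPM on day 3 and 36.1 TPM on day 2, -2.21) and Agrn (18.4 and 49.6 TPM, -1.53). None of 22 synthesis genes was called by edgeR, and 6 had an unadjusted p under 0.05, as had 3275 of all 12084 genes tested. DESeq2 called 7 synthesis genes, where it called 1502 of 14189 genes higher and 1115 lower.

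Day 3 blood was also set against endothelial cultures of the same lines, sharing samples with the comparisons above. Of 19 members tested, 1 was higher and 8 lower, where 31.1% of all 12655 genes tested were called higher and 30.2% lower, with a median log2 fold change of -1.68 for the members and 0.02 for all genes. Col4a1 was at 3.43 to 60.1 TPM in day 3 blood and 3010 to 4733 TPM in endothelial cultures (-6.89 ± 1.03 SE, adjusted p = 0.000252), and Col4a2 at 2.93 to 54.7 and 1812 to 3059 TPM (-6.44 ± 1.07). Col23a1 averaged 0.449 TPM in day 3 blood and 20.95 TPM in endothelial cultures (-5.15 ± 0.29), Col13a1 0.143 and 5.66 TPM (-5.07 ± 1.19), and Col15a1 1.27 and 65.8 TPM (-5.30 ± 1.27).

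Col18a1 was at 11.53 to 449 TPM in day 3 blood and 213 to 1392 TPM in endothelial cultures, with overlapping ranges (log2 fold change -2.18 ± 0.97 SE, adjusted p = 0.0734). It was lower in each of the 5 lines and passed once the line was a block (-3.25, adjusted p = 0.0047) and without day 3 blood of RB3.6.5 (-3.63, adjusted p = 0.00367), as well as by DESeq2 (-2.15, adjusted p = 0.0257) and by limma on log2(TPM + 1) (-3.54, adjusted p = 0.0043). Of 14 partners tested 11 were lower in day 3 blood and 1 higher, with Hspg2 at 7.22 TPM in day 3 blood and 802 TPM in endothelial cultures (-6.34) and Nid1 at 1.33 and 194 TPM (-6.59). Loxl2 (-5.32), Bmp1 (-4.51) and Fkbp14 (-3.78) were among the 9 lower of 23 synthesis genes, and 3 were higher: Loxl3 (3.94), Plod2 (1.32) and P4hb (0.92). The integrin chains Itga2 (-4.56), Itga1 (-3.34) and Itgb1 (-2.59) were lower.

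The single HSC library was set beside day 3 blood without a test. Of the 4 members at 5 TPM or more in either group, 3 lay above the range of the 5 blood libraries by over 2-fold on the log2(TPM + 1) scale, where 35.6% of 10743 genes at that level did so and 7.23% lay below. Col4a1 was at 85.7 TPM in HSCs and 3.43 to 60.1 TPM in day 3 blood, and Col4a2 at 77.6 TPM in HSCs and 2.93 to 54.7 TPM in day 3 blood. Col11a2 was at 23.5 TPM in HSCs and 1.42 to 4.27 TPM in day 3 blood, and no other library of the series exceeded 6.14 TPM. Col18a1, at 111 TPM in HSCs, lay inside the range of day 3 blood (11.53 to 449 TPM). The endothelial markers Cdh5, Tie1 and Emcn were at 23.6, 204 and 92.7 TPM in HSCs and averaged 53.4, 103 and 0.268 TPM in day 3 blood. The part of endothelial transcripts in the type IV levels of this library was not tested.

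The endothelial cultures were compared with embryo endothelium to ask how their collagens differ from those of primary cells. Type IV collagen was higher in the cultures and fibrillar collagens were lower. Of 35 members tested, 4 were higher and 16 lower, where 22% of all 13725 genes tested were called higher and 23.4% lower. The median log2 fold change was -1.64 for the members and 0.02 for all genes, and 8 of 10 fibrillar genes were lower. Without embryo replicate 1 the count of called members was 13, all lower, against 20. Calls over all genes fell as well, to 1570 higher and 1845 lower of 14123, against 3025 and 3210 of 13725.

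Col4a1 was at 3010 to 4733 TPM in the 5 endothelial cultures and 1200 and 2181 TPM in embryo endothelium (log2 fold change 1.19 ± 0.28 SE, adjusted p = 0.0123). Col4a2 was at 1812 to 3059 TPM in the cultures and 705 and 1258 TPM in embryo endothelium (1.35 ± 0.28, adjusted p = 0.00732). The groups did not overlap, but neither call held without embryo replicate 1 (0.91 with adjusted p = 0.0928, and 1.08 with 0.0627). Col18a1 averaged 999.7 ± 475 TPM in the cultures and 1101 ± 351 TPM in embryo endothelium (-0.13 ± 0.60, adjusted p = 0.872), and its sign turned without embryo replicate 2 (0.11) or without the M5 culture (0.13). Col15a1 averaged 65.8 ± 93.1 TPM in the cultures and 551 ± 262 TPM in embryo endothelium (-3.02 ± 1.42, adjusted p = 0.12), with all cultures below both primary libraries. It passed without the culture of RB4.6.9 (-4.42, adjusted p = 0.0323), the line with the highest level.

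Fibrillar genes found in the embryo libraries were at low levels in the cultures. Col5a2 was at 0.0210 to 1.01 TPM in the cultures and 66.1 and 96.9 TPM in embryo endothelium (log2 fold change -8.14 ± 1.02 SE, adjusted p = 0.00111). Col3a1 was at 0.105 to 0.392 TPM in the cultures and 19.1 and 28.99 TPM in embryo endothelium (-7.02 ± 0.46, adjusted p = 0.000231). Col1a2 averaged 0.0342 TPM in the cultures and 6.56 TPM in embryo endothelium (-7.31 ± 1.34), and Col5a1 1.11 and 13.1 TPM (-3.56 ± 0.81), a call that was lost without embryo replicate 2 (-3.21, adjusted p = 0.0649). Among the others, Col26a1 had no count in the cultures and 1611 counts in embryo endothelium, at least 1790-fold lower, Col9a2 averaged 0.0706 and 6.07 TPM (-6.32 ± 0.85), and Col23a1 20.95 and 29.8 TPM (-0.51 ± 0.15, adjusted p = 0.0263). The Col23a1 call was lost without embryo replicate 1 (adjusted p = 0.0813) or 2 (0.143) and without the culture of RB4.6.9 (0.0524), and by limma on log2(TPM + 1) (0.0594) or log2(TPM + 0.1) (0.06).

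Marker lists of other cell types differed in both directions. Mesenchymal markers summed to 1.21 to 27.5 TPM in the cultures and 65.3 to 80.8 TPM in embryo endothelium, with Dcn and Lum at 0.0234 and 0.0044 TPM in the cultures and 0.434 and 1.04 TPM in embryo endothelium. Chondrocyte markers summed to 0.819 to 3.20 TPM in the cultures and 77.1 to 84.2 TPM in embryo endothelium, nearly all of it Hapln1. Mural markers summed to 8.34 to 81.3 TPM in the cultures and 16.8 to 20.9 TPM in embryo endothelium. Parietal endoderm markers summed to 5768 to 7832 TPM in the cultures and 2036 to 2443 TPM in embryo endothelium. In the cultures most of this sum was Sparc (5343 to 7394 TPM). The part of these cell types in the collagen differences was not tested. Of 8 collagen receptors tested 3 were higher in the cultures and 3 lower, the higher ones being Itgb1 at 1407 TPM in the cultures and 468 TPM in embryo endothelium (log2 fold change 1.58), Itga2 (1.83) and Itga1 (1.198), and the lower ones Ddr2 (-3.94), Lair1 (-4.57) and Mrc2 (-3.09). Of 17 partners 3 were higher, Sparc (1.65) and Pxdn (1.07) among them, and 5 lower. Of 28 synthesis genes 4 were higher and 7 lower: Fkbp14 (2.13), Loxl2 (1.76) and Bmp1 (1.01) were among the higher and P4ha3 (-5.98), Colgalt2 (-4.13) and Tll1 (-3.17) among the lower.

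Among the endothelial cultures, origin was compared as 3 tissue-derived lines (M5, FL4, FL10) against 2 ES-derived lines in 1 medium. None of 23 members tested was called by edgeR, where 0.00778% of all 12860 genes tested were called (1 gene). An unadjusted p under 0.05 was found for 5 members and for 2364 of the 12860 genes. DESeq2 called 2 members, Col11a2 and Col13a1, where it called 767 of 13328 genes higher and 824 lower. Col4a1 averaged 4217 TPM in tissue-derived and 3185 TPM in ES-derived lines (log2 fold change 0.41 ± 0.24 SE, adjusted p = 0.413), and Col18a1 808 and 1288 TPM (-0.68 ± 0.72, adjusted p = 0.654). Col15a1 was at 1.37, 6.51 and 30.4 TPM in M5, FL4 and FL10, against 64.7 and 226 TPM in RB3.6.5 and RB4.6.9 (-3.54 ± 1.33, adjusted p = 0.264). The ranges did not overlap, yet the difference did not pass the threshold. Col13a1 was at 6.42, 4.45 and 14.54 TPM in M5, FL4 and FL10 and 1.52 and 1.36 TPM in RB3.6.5 and RB4.6.9 (2.56 ± 0.61, adjusted p = 0.168), the reverse of its order in eHB cells.

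Yolk sac endothelium was set against embryo endothelium of the same age, to ask how the beds differ in their collagens. The embryo libraries are those used above. Most collagens outside the basement membrane class were higher in yolk sac libraries, and Col23a1, Col26a1 and Col15a1 were lower. Of 34 members tested, 22 were higher and 3 lower (edgeR, adjusted p under 0.05), where 15.9% of all 13673 genes tested were called higher and 8.54% lower. The median log2 fold change was 2.02 for the members and -0.03 for all genes. Of 10 fibrillar genes 9 were higher and none lower, of 18 others 11 were higher and 2 lower, and of 6 basement membrane genes 2 were higher and 1 lower.

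Among fibrillar genes, Col1a1 was at 502 and 418 TPM in yolk sac endothelium and 2.13 and 3.53 TPM in embryo endothelium (log2 fold change 7.32 ± 0.32 SE, adjusted p = 4.04e-07). Col1a2 was at 335 and 324 TPM in yolk sac and 4.31 and 8.81 TPM in embryo endothelium (5.64 ± 0.32, adjusted p = 1.46e-06). Col3a1, the type III chain of soft tissues and vessel walls, was at 277 and 299 TPM in yolk sac and 19.1 and 28.99 TPM in embryo endothelium (3.56 ± 0.24). The cartilage-type chains Col2a1 (38.2 and 2.12 TPM in yolk sac and embryo, 4.12 ± 0.23) and Col11a1 (17.2 and 1.35 TPM, 3.64 ± 0.22) were higher, and Col5a1 (67.8 and 13.1 TPM, 2.35 ± 0.25) and Col5a2 (183 and 81.5 TPM, 1.14 ± 0.21) less so. Both yolk sac libraries stood above both embryo libraries for each of these 7 genes. They were named because they passed the test, so this separation is no added support.

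Among the others, Col13a1 was at 288 and 266 TPM in yolk sac and 13.1 and 22.4 TPM in embryo endothelium (log2 fold change 3.94 ± 0.23 SE). The fibril-associated Col14a1 was at 100.2 and 66 TPM in yolk sac and 0.608 and 0.702 TPM in embryo endothelium (6.94 ± 0.28, adjusted p = 2.71e-07). The beaded filament chain Col6a3 (13.4 and 0.403 TPM, 5.04 ± 0.28), Col12a1 (8.32 and 0.315 TPM, 4.76 ± 0.36), Col16a1 (16.9 and 0.785 TPM, 4.41 ± 0.26) and Col9a3 (22.9 and 1.29 TPM, 4.11 ± 0.25) were higher in yolk sac. Col9a2 averaged 69.4 TPM in yolk sac and 6.07 TPM in embryo endothelium (3.51 ± 0.26). Col23a1 was lower, at 4.07 and 4.92 TPM in yolk sac and 25.95 and 33.7 TPM in embryo endothelium (-2.76 ± 0.21), as was Col26a1 at 4.14 and 6.03 against 21.8 and 25.8 TPM (-2.26 ± 0.25).

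**Figure D5:**
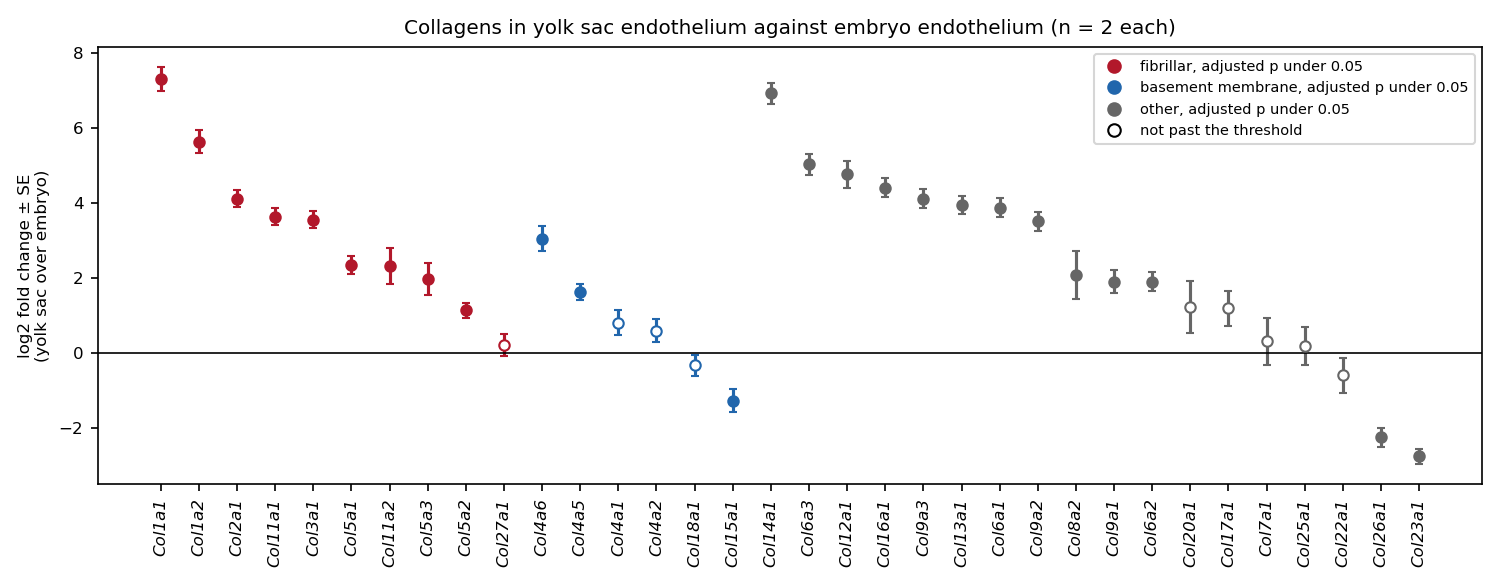
Log2 fold change of yolk sac over embryo endothelium ± SE for the 34 collagens tested, ordered within fibrillar (red), basement membrane (blue) and other (grey) collagens. Filled points passed an adjusted p of 0.05. Fibrillar genes reach 7.32 (Col1a1), and Col15a1, Col26a1 and Col23a1 lie below 0.

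The basement membrane class differed less. Col15a1 was lower, at 267 and 192 TPM in yolk sac and 366 and 736 TPM in embryo endothelium (log2 fold change -1.28 ± 0.30 SE, adjusted p = 0.0113), a call that was lost without yolk sac replicate 2 (-1.09, adjusted p = 0.149). Col4a5, a chain of epithelial and smooth muscle basement membranes, averaged 13.7 TPM in yolk sac and 4.31 TPM in embryo endothelium (1.62 ± 0.21). Col4a6, its head-to-head neighbour, averaged 3.15 and 0.367 TPM (3.05 ± 0.34). Col4a1 was at 3431 and 2581 TPM in yolk sac and 1200 and 2181 TPM in embryo endothelium (0.81 ± 0.34, adjusted p = 0.121), Col4a2 averaged 1502 and 982 TPM (0.59 ± 0.32, adjusted p = 0.212), and Col18a1 892 and 1101 TPM (-0.33 ± 0.28, adjusted p = 0.438). Without embryo replicate 2, Col4a1 (1.14, adjusted p = 0.00749) and Col4a2 (0.91, adjusted p = 0.0177) passed. With all 4 libraries, Col4a1 passed by DESeq2 (0.81, adjusted p = 0.00484).

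Transcripts of other cell types also differed. All 6 visceral endoderm markers reached 1 TPM in yolk sac libraries, where they summed to 10190 to 10580 TPM, against 5.06 to 10.7 TPM in embryo endothelium, with Afp at 7389 and 4.59 TPM and Ttr at 797 and 0.599 TPM. Of 10 mesenchymal markers 8 reached 1 TPM in yolk sac and 6 in embryo endothelium, with sums of 169 to 187 TPM and 65.3 to 80.8 TPM. Among them Lum (62.0 and 1.04 TPM), Postn (62.6 and 5.94 TPM) and Dcn (20.0 and 0.434 TPM) were higher in yolk sac, Pdgfra was at 2.79 and 2.04 TPM, and Dpt was at 0 in both yolk sac libraries. Mural markers summed to 165 to 181 TPM in yolk sac and 16.8 to 20.9 TPM in embryo endothelium, and macrophage markers to 531 to 603 and 107 to 189 TPM. Parietal endoderm markers summed to 3796 to 4338 TPM in yolk sac and 2036 to 2443 TPM in embryo endothelium. Of the chondrocyte markers edgeR called 2. Sox9 had no count in yolk sac and 127 counts in embryo endothelium, at least 39.6-fold lower. The part of such cells in the collagen differences was not tested.

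Of 28 synthesis genes 12 were higher in yolk sac and 4 lower. The lysyl oxidases Loxl1 (7.43 TPM in yolk sac and 0.594 TPM in embryo endothelium, log2 fold change 3.62) and Lox (6.03 and 0.671 TPM, 3.13) and the prolyl 4-hydroxylase P4ha2 (46.4 and 6.80 TPM, 2.73) were among the higher, and the collagen galactosyltransferase Colgalt2 (1.33 and 27.5 TPM, -4.40), Tll1 (-1.60) and Bmp1 (-1.50) among the lower. Of 17 basement membrane partners 7 were higher and 1 lower, with the epithelial laminin chain Lama3 at 22.4 TPM in yolk sac and 1.16 TPM in embryo endothelium (4.26) and the vascular chain Lama4 at 114 and 243 TPM (-1.12). Of 9 receptors, Ddr1 (16.4 and 1.07 TPM, 3.89) and Mrc2 (5.62 and 1.36 TPM, 2.01) were higher and none was lower.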

How the data were processed

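RNA-seq was run on 31 mouse libraries made from total RNA with Illumina's Tru-seq kit (v2), per the labels' protocols. The authors deposited expected counts per gene (RSEM estimates, which divide reads that fit several transcripts) and TPM values renormalised in a way not given in the sources used here. Build mm10 and the tools Bowtie 0.12.9, RSEM 1.2.3 and CASAVA 1.8.2 are listed per the submitters' processing notes. The strand setting is not given in the sources used here, so overlapping genes such as Col4a1 and Col4a2 could share reads at their starts. TPM columns were assigned by header name after an extra header name was left out. As a check, 31 of 31 were closest to their own count column.

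Expected counts were rounded and tested by the quasi-likelihood method of edgeR 4.0.16 (R 4.3.3; TMM scaling, robust dispersions, filterByExpr), with only the compared groups in each fit and Benjamini-Hochberg adjustment over all genes tested at 0.05. The SE is the unshrunken coefficient divided by the square root of F. Alternatives were DESeq2 1.42.0, no low-count filter, limma 3.58.1 on log2(TPM + 1) or log2(TPM + 0.1), a replicate block and leaving out each library. The step was tested on simulated data. Where all libraries of a group had no count, a bound is given against a floor of 3 counts over the group, which covers counting error only. Members and gene lists were chosen with earlier results of these data known. Members were named if they passed with at least 5 TPM as the higher group mean (up to 6 a class), or did not pass with at least 50 TPM. Called members below 5 TPM, Col13a1 where it did not pass and the promoters shown were chosen after their values were seen. Same-line samples share the eHB or ES line named in the labels, which pairs them. Their deviations correlated at 0.245 to 0.48 between endothelial cultures and eHB, and at -0.0887 to 0.0694 between mesoderm and ES cells. For day 2 blood and eHB the range was 0.142 to 0.373, for day 3 and day 2 blood 0.0893 to 0.712, and for day 3 blood and endothelial cultures 0.0173 to 0.294. In both day 3 comparisons, day 3 blood of RB3.6.5 correlated more with M5 (0.536 and 0.214) than with its own line (0.287 and 0.0173). Within groups, 48 pairs of libraries had a mean chi-square per gene of 4.16 to 568. Gene positions are those of GENCODE on GRCm38, and promoters those of RefSeq (GRCm38.p6). Protein sequences were not used here.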

Additional observations from a re-analysis of the deposited data

Results flagged for a closer look

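Col15a1 in the endothelial culture of RB4.6.9 was at 226 TPM and stood above the other 4 cultures, which were at 1.37 to 64.7 TPM. The highest of those was RB3.6.5, the other ES-derived line. Over 4 groups of 5 libraries, 29 values were examined in this way, and chance marks about 1 in 20 groups. The result rests on 1 library.

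The change of Col13a1 differed between tissue-derived and ES-derived lines, and was opposite in direction for endothelial cultures against eHB. Between endothelial cultures and eHB, the log2 ratio of TPM + 1 was 2.85, 2.31 and 3.96 in M5, FL4 and FL10 and -3.48 and -3.14 in RB3.6.5 and RB4.6.9, a difference of means of 6.35. Between day 2 blood and eHB it was 0.0125, 0.441 and 2.00 in M5, FL4 and FL10 and -3.01 and -1.82 in RB3.6.5 and RB4.6.9, a difference of 3.23. In that contrast M5 was nearly unchanged and FL4 changed little. Both contrasts share the eHB libraries, and the differences were not tested. The eHB cells of the 2 origins were grown in different media, so origin and medium cannot be told apart.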

How the results depend on the processing

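Counts of called members (main value in brackets) moved by over 1.5 times in these cases. For mesoderm against ES cells, limma gave 18 (29) with either pseudocount. DESeq2 gave 17 (11) for endothelial cultures against eHB, 15 (7) for day 2 blood against eHB, 7 (2) for day 3 against day 2 blood, 15 (9) for day 3 blood against endothelial cultures and 2 (0) for origin. Without a low-count filter, day 2 blood against eHB gave 12 (7) and day 3 blood against endothelial cultures 14 (9). With limma, day 2 blood against eHB gave 4 (7) and day 3 against day 2 blood 1 (2). Leaving out each library in turn gave 1 to 6 for day 3 against day 2 blood and 13 to 21 (20) for endothelial cultures against embryo endothelium, and the other counts stayed within 1.5 times. The cause was not tested. Col18a1 between endothelial cultures and embryo endothelium ran from -0.324 to 0.127 when each library was left out, and turned to 0.105 without embryo replicate 2 and 0.127 without the M5 culture. With the line as a replicate block the counts were 29 for mesoderm, 13 for endothelial cultures and 10 for day 2 blood against eHB, and 3 and 10 for day 3 blood against day 2 blood and endothelial cultures. The block moved no count by over 1.5 times. Yolk sac and embryo libraries share only a number (deviations correlated at -0.401): its block gave 24 (25) and the crossed pairing, added after seeing the data, 27. TPM scaling moved the median of all genes by -0.309 for mesoderm against ES cells, 0.309 for eHB against mesoderm, -0.609 for day 2 blood against eHB and -0.377 for day 3 blood against endothelial cultures. On TMM-scaled CPM in place of TPM, the log2 ratio of class sums was 3.54 (2.83) for fibrillar, 2.15 (1.41) for basement membrane and 1.86 (1.47) for other collagens between mesoderm and ES cells, 0.124 (-0.327) for fibrillar collagens between day 3 blood and endothelial cultures, and -1.06 (-1.42) for other collagens between endothelial cultures and embryo endothelium. The HSC comparison has 1 library and no error, and the primary groups have 2 libraries each.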
